A study of Mus musculus with 68 samples.

Results

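Knockdown of Max was profiled in the trophectoderm (TE), the outer epithelium of the blastocyst that goes on to form the placenta. Zygotes from fertilization were injected with a morpholino against Max (Max MO), cultured, and the TE was separated from the inner cell mass (ICM) by micromanipulation for Smart-seq2, an RNA-seq method for few cells that captures polyadenylated RNA. The 4 libraries described here are the 2 labelled Max MO TE and the 2 labelled control TE, among 12 libraries of the morpholino experiment and 68 of the series, and they were chosen by their labels alone. The remaining morpholino libraries are 2 each of Mcrs1 MO TE, control ICM, Max MO ICM and Mcrs1 MO ICM. The labels call the control libraries control and untreated, whereas the treatment protocol names a random control morpholino, and the study's methods give that control at a higher concentration than the Max morpholino. The labels give no allele or age, and the BDF1 oocyte donors of their common protocol belong to the nuclear transfer embryos. By the study's methods the fertilized zygotes came from C57BL/6j mice on both sides. Each reaction held about 10 blastomeres, and the study calls the libraries of a group biological replicates. The study describes blastocysts as rare after injection at a higher dose than was used for these libraries, so the TE profiled is that of embryos that reached the blastocyst.

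MAX is a small basic helix-loop-helix leucine zipper protein that binds the E-box CACGTG only as a dimer. With MYC, MYCN or MYCL it activates genes of growth and biosynthesis, with MXD proteins, MXI1 or MNT it represses them, and with MGA it forms part of the Polycomb complex PRC1.6, which keeps germline genes silent in pluripotent cells. In the blastocyst, the TE is specified by the transcription factors CDX2, GATA3, TFAP2C, TEAD4 and EOMES, and pumps fluid into the blastocoel through its sealed epithelium. A morpholino blocks translation or splicing of its target without having to degrade it, so the Max mRNA level need not follow the MAX protein.

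Expression is given as TPM (transcript abundance scaled to the library total), summed per gene symbol. Fold changes are differences of mean log2(TPM + 1), which understate the change of low genes, and they were tested with limma on 11219 genes with a mean of at least 1 TPM. A gene was called at a Benjamini-Hochberg adjusted p under 0.05 with a change of at least 2-fold. The tables hold no counts. Depth, derived from coverage and FPKM, was 1.00 and 2.23 aligned gigabases in the control TE libraries and 3.19 and 3.05 in the Max MO TE libraries. Between 10146 and 10928 genes reached 1 TPM in each of the 4. Each table lists reference genes beside loci assembled in that library. The TPM of reference genes summed to 85.5 to 90.3% of that of the assembled loci in the 4 control libraries of the experiment. In the 8 Max and Mcrs1 MO libraries it was 93.6 to 94.4%. The controls thus stood apart from both knockdowns in composition as well as in treatment. Any step that differed between the control and the morpholino libraries cannot be told apart from the knockdown.

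Tissue identity differed between libraries in a way that bears on the test. Of the marker genes of the TE, Krt18 and Krt8, its keratins, and Gata3 were high in all 4 TE libraries described here. Control ICM replicate 1 held Krt18 at 10274 TPM and Gata3 at 1509 TPM, which are TE levels, whereas control ICM replicate 2 held 108 and 63.7 TPM. The 12 libraries share 1 estimate of the spread per gene, and the gap between these ICM libraries enters that spread for every TE gene. For this reason the value from the 6 TE libraries alone is given beside the main value wherever the call differs, and the effect of leaving out control ICM replicate 1 was also computed. The Mcrs1 MO ICM libraries, which also enter the fit, held Krt18 at 6021 and 3701 TPM and Krt8 at 5008 and 3893 TPM, beside 7742 and 8096 TPM and 6780 and 7001 TPM in Mcrs1 MO TE. Of the primitive endoderm genes, Sox17 was at 17.8 TPM and Pdgfra at 16.8 TPM in Max MO TE replicate 2 and both were at 0 in replicate 1, whereas Gata6 was even at 20.6 and 21.1 TPM and Sparc stood at 15.4 and 12.5 TPM. The summed level of the list was 65.1 and 86.6 TPM in control TE and 60.4 and 107 TPM in Max MO TE. The epiblast gene Tdgf1 was at 0 and 77.2 TPM in the control TE libraries and at 0 and 49.3 TPM in the Max MO TE libraries. The summed level of the epiblast list was higher in both Max MO TE libraries, at 9656 and 10553 TPM against 6152 and 7258 TPM in control TE. Its median log2 difference lay the other way, at -0.43. The 5 primitive endoderm and epiblast genes named in this paragraph were picked after their values were seen. Of 16 cumulus cell genes, 1 reached the filter. Their part in the results below was not tested.

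Max itself was lower in both Max MO TE libraries without passing the test. It was at 34.5 and 28.5 TPM in control TE and at 16.3 and 8.68 TPM in Max MO TE, so the groups did not overlap. The log2 difference was -1.32 with an SE of 0.80 (n = 2 and 2, limma adjusted p = 0.390), and with the 6 TE libraries alone the adjusted p was 0.0662. Mcrs1 MO TE, in which Max was not the target, held Max at 17.6 and 15.7 TPM, close to Max MO TE replicate 1. The control ICM libraries differed from each other as much as the treatment groups did, at 38.0 and 8.42 TPM. In the TE, Max mRNA was thus below both control libraries in all 4 libraries of both knockdowns.

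Most partners of MAX had lower mean levels in Max MO TE, and 0 of the 11 network genes tested were called. Mycn, the MYC paralogue with the highest level here, stood at 121 and 55.6 TPM in control TE and at 27.1 and 17.4 TPM in Max MO TE. Its log2 difference of -1.87 (SE 1.35) had a limma adjusted p of 0.479 over 12 libraries and 0.0486 over the 6 TE libraries. Myc was at 24.9 and 27.1 TPM against 18.8 and 14.5 TPM. Both groups were apart for each of these genes. Among the repressive partners, Mga, the scaffold that brings MAX into PRC1.6, was at 14.5 and 12.7 TPM against 5.97 and 6.10 TPM, and Mnt was at 3.77 and 1.84 TPM against 0.334 and 0.676 TPM. Mxd4, an MXD repressor, lay the other way, at 0.375 and 1.07 TPM against 3.25 and 7.22 TPM, with an adjusted p of 0.148. Mlx, which dimerizes with a parallel set of partners, was at 56.2 and 51.8 TPM against 53.8 and 47.6 TPM. The median log2 difference of the network was -0.62, beside -0.19 over all genes tested. PRC1.6 subunits had a median of -0.43 and 0 of 11 were called. Of the 11, 6 had both Max MO TE libraries below both control TE libraries, beside 36.3% of all genes tested. Cbx3, the HP1 protein of the complex, was at 267 and 294 TPM against 228 and 215 TPM, and L3mbtl2, its MBT-domain subunit, at 52.1 and 43.2 TPM against 29.9 and 35.6 TPM.

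**Figure D1:**
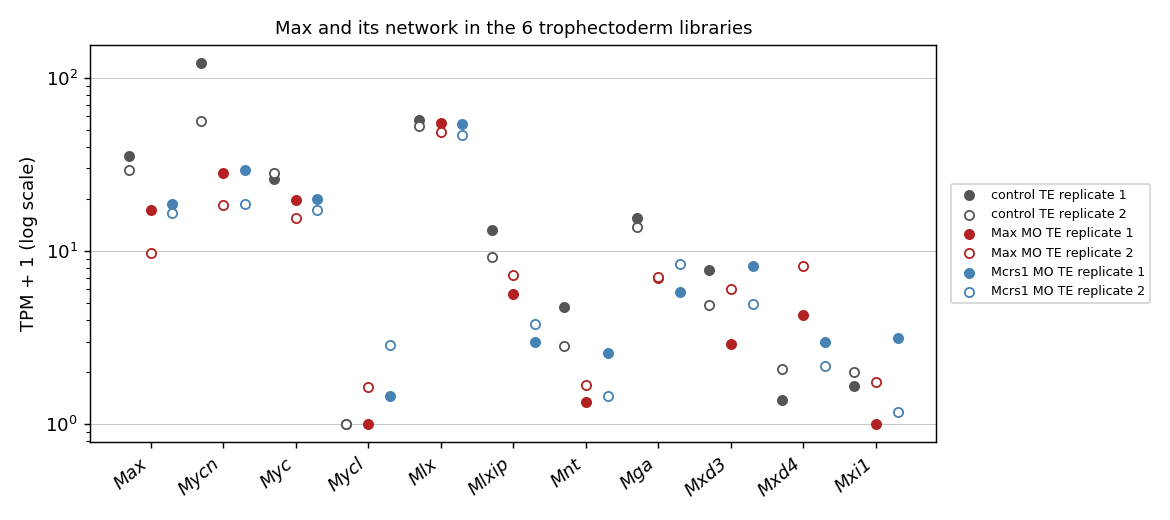
TPM + 1 on a log axis for the 11 tested genes of the MYC, MAX and MXD network in the 6 TE libraries, 1 point per library. Max sits lower in both Max MO TE libraries (16.3 and 8.68 TPM) than in control TE (34.5 and 28.5 TPM), Mycn follows, and Mxd4 lies the other way.

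Across all genes, 280 of 11219 were called between Max MO TE and control TE, which is 2.5%, with 117 higher (1.04%) and 163 lower (1.45%). The whole distribution was shifted, since the median log2 difference was -0.19, and 36.3% of the genes lay lower and 21.2% higher in both Max MO TE libraries than in both control TE libraries. Gene groups are read against that shift. The number of calls depended on the spread used. The 6 TE libraries alone gave 727 calls (6.48%; 1.93% higher and 4.55% lower), the fit without control ICM replicate 1 gave 796 (7.1%; 2.32% higher and 4.78% lower), and 277 of the 280 were among the 727. Leaving out any 1 of the 4 libraries gave 1 to 3 calls, and a fit on the 4 libraries alone gave 0, with 2919 genes at an unadjusted p under 0.05.

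Transcript length moved with the result. The median longest transcript was 3065 bases over all genes tested, 1185 bases over genes called higher and 3722 bases over genes called lower. In the shortest of 10 length classes of genes the median log2 difference was 0.39 and in the longest -0.67, with a steady fall between them. With this trend removed, 125 genes were called (1.12%), 89 of them higher (0.798%) and 36 lower (0.323%), and 79 of the 280 remained. Genes called lower had a median GC content of 54.2%, against 49.4% over all genes, and with a GC trend removed 410 genes were called (3.68%), 306 higher (2.75%) and 104 lower (0.933%). The balance of higher and lower calls thus changed with each correction, and the part of length and GC in each gene's change was not tested.

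**Figure D2:**
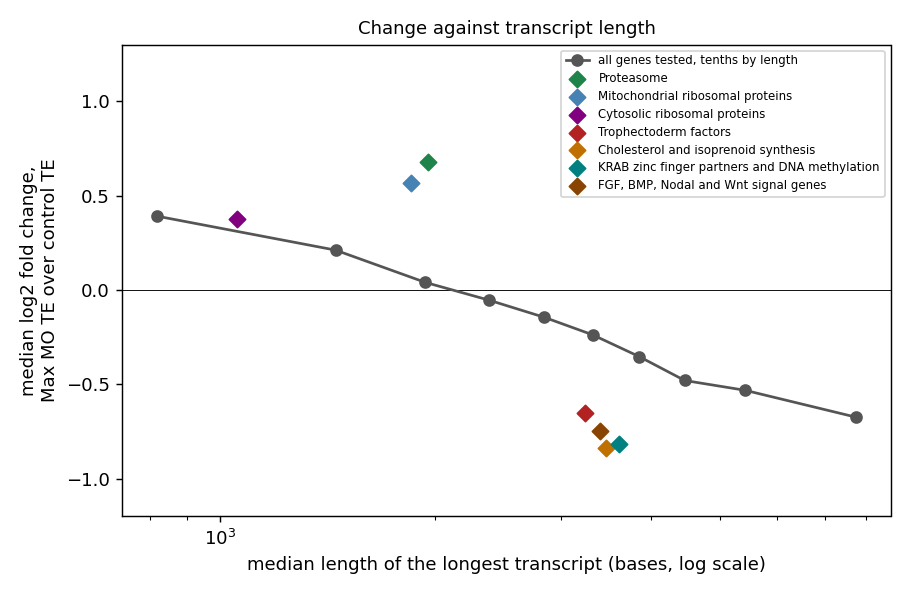
Median log2 difference between Max MO TE and control TE for 10 equal groups of genes ordered by transcript length (line) and for 7 gene lists at their median length (diamonds). The line runs from 0.39 at the short end to -0.67 at the long end, the proteasome lies above it at 0.68 and cholesterol synthesis below it at -0.84.

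Of the genes that mark or specify the TE, 1 passed the test. Tfap2c, an AP-2 factor needed for the TE programme, was called, at 240 and 230 TPM in control TE and 61.6 and 80.3 TPM in Max MO TE (log2 difference -1.72, SE 0.25, limma adjusted p = 0.0206). Both Max MO TE libraries were below both controls by a wide margin. Of 24 TE genes tested, 0 were called higher and 1 lower, and the median log2 difference was -0.65. In 15 of the 24 both Max MO TE libraries lay below control TE, beside 36.3% of all genes. In 2 they lay above, beside 21.2% of all genes. These were Krt8 and Lgals3, the latter at 40.6 and 37.1 TPM against 66.2 and 298 TPM. Gata3 was at 1582 and 1979 TPM against 666 and 541 TPM, Cdx2 at 68.3 and 54.6 TPM against 22.8 and 30.8 TPM, and Gata2 at 71.9 and 64.4 TPM against 27.8 and 19 TPM. None of these groups overlapped. Eomes, a T-box factor of TE and trophoblast stem cells, was at 77.0 and 66.4 TPM against 36.0 and 30.0 TPM, and Tfap2a at 12.6 and 8.87 TPM against 2.39 and 1.83 TPM. Other factors overlapped between groups, Elf5 at 30.4 and 12.1 TPM against 15.3 and 3.86 TPM and Klf6 at 166 and 107 TPM against 135 and 136 TPM.

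Gata3, Gata2, Cdx2, Eomes and Tfap2a missed the threshold over 12 libraries, and all but Cdx2 passed it over the 6 TE libraries. Gata3 had a log2 difference of -1.56 with an SE of 0.99 and a limma adjusted p of 0.418 over 12 libraries, against an SE of 0.18 and an adjusted p of 0.0228 with TE libraries alone. On the same 6 libraries Gata2 had an adjusted p of 0.0369, Tfap2a 0.0451 and Eomes 0.0335, while Cdx2 had 0.0570. The hypoxia and differentiation gene Ndrg1, at 364 and 334 TPM against 195 and 139 TPM, was the sixth TE gene called there. Leaving out control ICM replicate 1 gave Gata3 an adjusted p of 0.00474 and Cdx2 one of 0.0747. The epithelial keratins, neither of them called, had mean differences of opposite sign, and that of Krt18 turned to 0.12 with the GC trend removed. Krt8 was at 5944 and 5099 TPM against 9193 and 9671 TPM, Krt18 at 12846 and 11171 TPM against 9675 and 10866 TPM. Over the 6 TE libraries Krt8 had a limma adjusted p of 0.0300, and its log2 difference of 0.78 was under the 2-fold limit. The summed level of the TE list was 28004 and 24374 TPM in control TE and 24734 and 25951 TPM in Max MO TE. Tead4, the upstream factor of Cdx2, was at 77.3 and 84.9 TPM against 55.4 and 67.3 TPM, and Klf5 at 178 and 140 TPM against 98.3 and 117 TPM, neither called in any of these 3 fits.

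**Figure D3:**
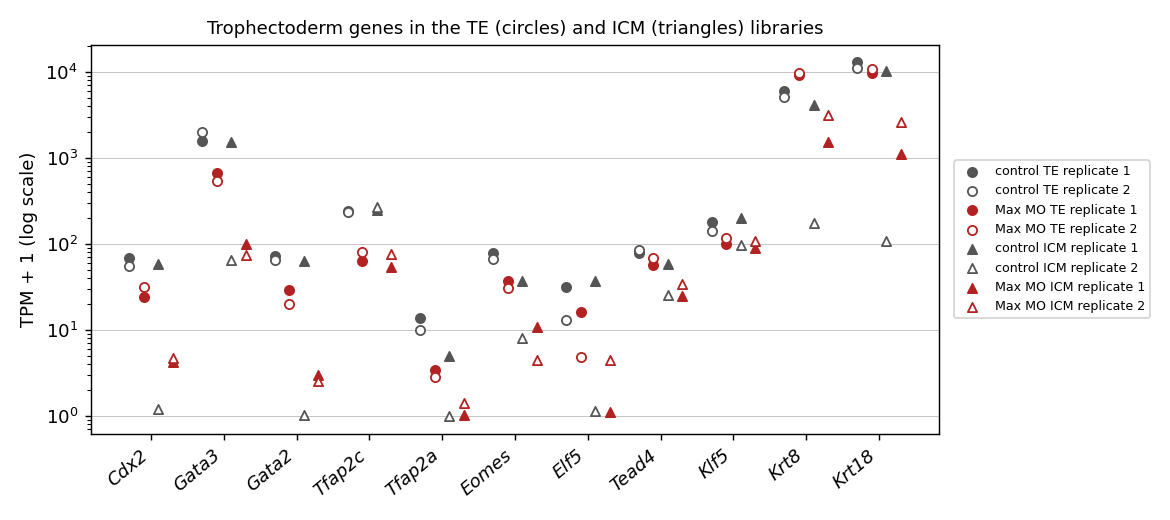
TPM + 1 on a log axis for 11 TE genes, with TE libraries as circles and ICM libraries as triangles. Tfap2c, Gata3, Gata2, Cdx2 and Eomes are lower in both Max MO TE libraries than in both control TE libraries, and control ICM replicate 1 lies at TE levels for Gata3 and Krt18 while replicate 2 does not.

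Genes of the sealed, fluid-pumping epithelium included 2 that fell. Aqp3, an aquaporin of the TE membrane, was at 190 and 275 TPM in control TE and 62.3 and 57.5 TPM in Max MO TE (log2 difference -1.92, SE 0.26, limma adjusted p = 0.0167). Cgn, which encodes the tight junction protein cingulin, was at 249 and 226 TPM against 87.1 and 73.3 TPM (-1.56, SE 0.35, adjusted p = 0.0432). These were the 2 called of 32 blastocoel and junction genes, whose median was -0.45. Of the 32, 19 were apart and lower, beside 36.3% of all genes. With the length trend removed the median was -0.17. Aqp3 stayed called with the length or the GC trend removed, and Cgn did not (limma adjusted p = 0.135 and 0.0616). Over the 6 TE libraries 6 were called lower, the others, named after their values were seen, being Cdh1 (E-cadherin), Jup (plakoglobin), Pard6b, a polarity protein, and Cldn3, a claudin. Jup stood at 78.7 and 57.5 TPM against 26.8 and 21.9 TPM. Actn4, an actin crosslinker, was called lower, at 1539 and 989 TPM against 415 and 392 TPM (-1.61). Myl12a, a regulatory myosin light chain, was called higher, at 342 and 317 TPM against 734 and 614 TPM (1.03). The list of actin and keratin genes as a whole had a median of 0.00, with 1 of 55 called in each direction.

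Of the pluripotency genes, Tbx3 and Sall4, both expressed in the TE as well as in the ICM of the controls, were called lower. Tbx3 was at 43.9 and 44.1 TPM against 5.84 and 10.7 TPM (log2 difference -2.33, SE 0.43, limma adjusted p = 0.0280). Sall4 was at 368 and 306 TPM against 168 and 133 TPM (-1.16, SE 0.27, adjusted p = 0.0484). With the length trend removed neither was called (limma adjusted p = 0.0628 for Tbx3 and 0.211 for Sall4). With the GC trend removed Tbx3 was called and Sall4 was not (0.0228 and 0.111). Of the 20 epiblast factors tested, 0 were called higher and the median was -0.43. Of these, 5 were apart and higher and 7 apart and lower, beside 21.2% and 36.3% of all genes. The summed level of the list lay the other way from its median, at 6152 and 7258 TPM in control TE and 9656 and 10553 TPM in Max MO TE. Among primitive endoderm genes 0 of 18 were called, with a median of 0.05. In bulk libraries such as these, fewer cells of a type and less RNA per cell cannot be told apart.

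A signalling list and a chromatin list were among those with the lowest medians. FGF, BMP, Nodal and Wnt signal genes had a median of -0.75 over 45 tested, with 25 apart and lower against 36.3% of all genes. Erbb3, a receptor of the EGF family, was called lower, at 26.5 and 29.5 TPM against 4.96 and 4.47 TPM (-2.34, SE 0.54, limma adjusted p = 0.0448). The opposite member was Cited1, a CBP/p300-binding coactivator known from the placenta, at 0.382 and 1.23 TPM in control TE and 19.7 and 22.4 TPM in Max MO TE (3.65, SE 0.58, adjusted p = 0.0226). KRAB zinc finger partners and DNA methylation genes had a median of -0.82 and 0 of 23 called, with 15 apart and lower. Over the 6 TE libraries 4 of these were called lower, named after their values were seen: the methylation cofactor Uhrf1, the de novo methyltransferase Dnmt3b, the dioxygenase Tet2 and the H3K9 methyltransferase Setdb1. Uhrf1 was at 37.5 and 51.1 TPM against 14.8 and 10.1 TPM, and Setdb1 at 41.8 and 37.3 TPM against 15.6 and 14.8 TPM. With the length trend removed the medians of both lists stayed on the lower side, at -0.49 and -0.43, beside -0.01 over all genes. Other lists of these kinds lay nearer to all genes, with 0 of 35 histone chaperones and variants called and a median of -0.26, and 0 of 20 Hippo pathway genes and -0.41.

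Cholesterol synthesis and uptake had the lowest median of the 46 lists with at least 10 tested genes, -0.84, or -0.55 with the length trend removed. Close to it were X and Y chromosome genes (-0.83) and KRAB zinc finger partners and DNA methylation genes (-0.82). With the GC trend removed those lists were lower, at -0.75 and -0.66 beside -0.61 for cholesterol. The summed level of the cholesterol list was 1643 and 2333 TPM in control TE and 1529 and 1084 TPM in Max MO TE. Of 27 genes tested, 24 had a negative difference, 2 were called lower and 0 higher. Of the 27, 17 were apart and lower, beside 36.3% of all genes. Hmgcs1, which makes HMG-CoA, was at 113 and 212 TPM against 53.4 and 44.7 TPM (-1.64, SE 0.35, limma adjusted p = 0.0394). Its groups did not overlap. Members without a call, picked after their values were seen, lay the same way. Sqle, the squalene epoxidase, was at 110 and 173 TPM against 63.7 and 28.5 TPM, and Srebf2, the master regulator of the pathway, at 11.3 and 11.8 TPM against 3.17 and 4.20 TPM. Their adjusted p-values were 0.0696 and 0.215.

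**Figure D4:**
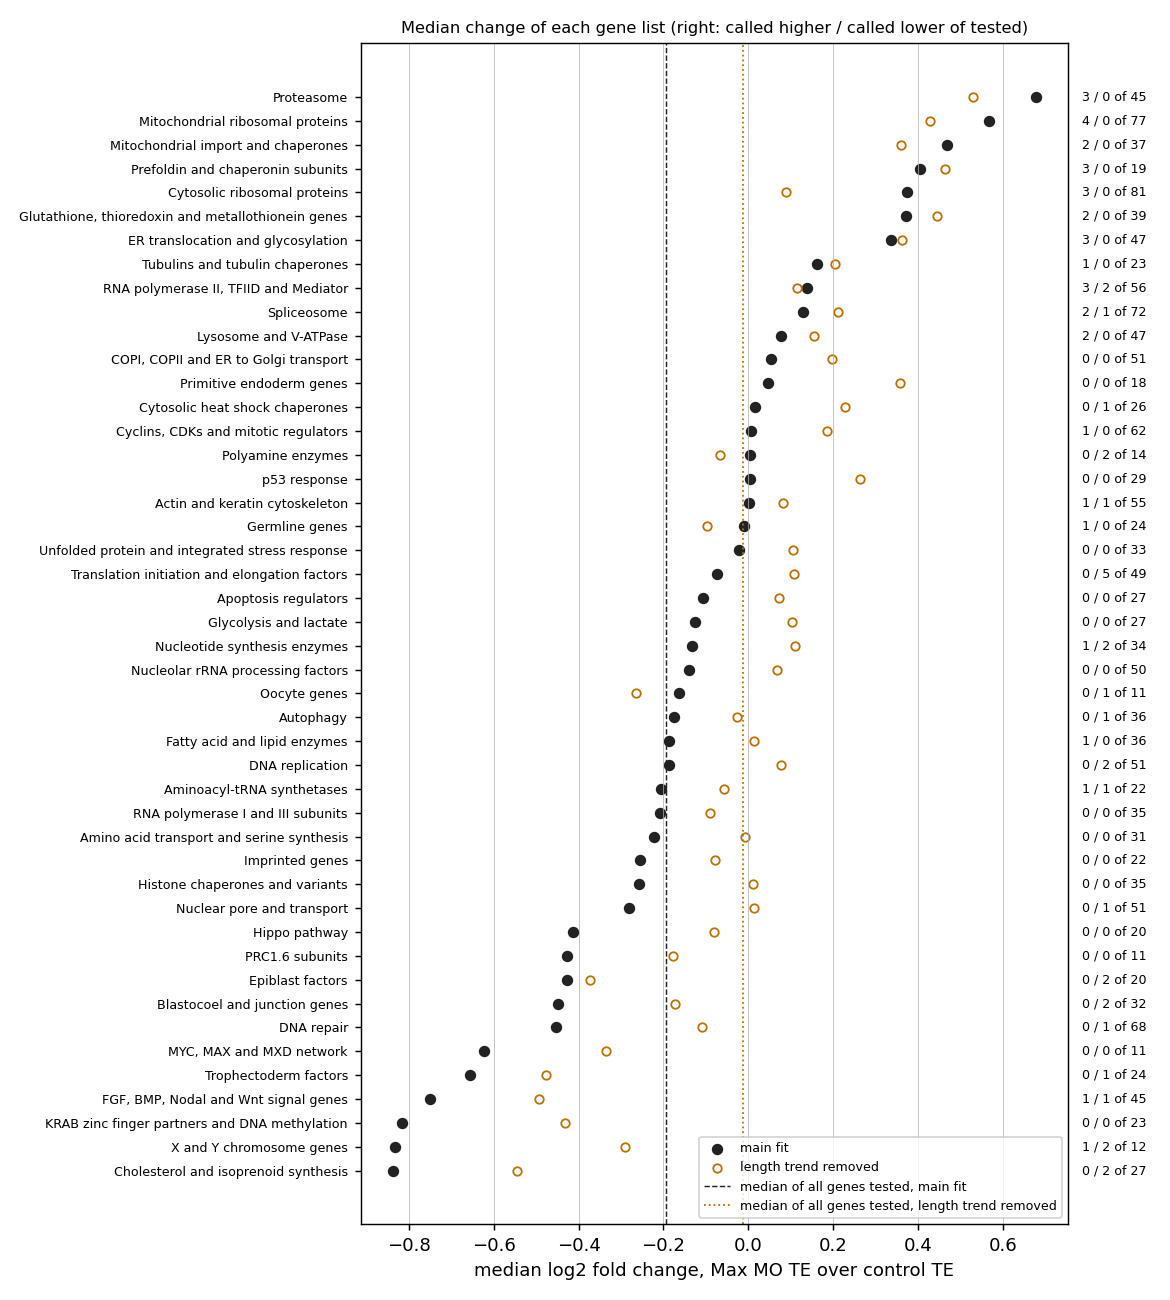
Median log2 difference between Max MO TE and control TE for the 46 lists with at least 10 tested genes (filled, no correction, which the legend calls the main fit; open, length trend removed), with called higher, called lower and tested counts at the right and dashed lines at the medians of all genes. Cholesterol synthesis is lowest at -0.84 and the proteasome highest at 0.68.

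Biosynthesis genes that MYC is known to drive moved in both directions. Translation factors gave 5 called lower and 0 higher of 49 tested, with a median of -0.07. Eif4a2, an RNA helicase of the cap-binding complex, was at 1083 and 868 TPM against 221 and 268 TPM (-1.99, limma adjusted p = 0.0149). Eif4g1, the scaffold of that complex, was at 94.1 and 89.1 TPM against 25.9 and 27.7 TPM (-1.74, adjusted p = 0.0239). Eef1a1, the elongation factor that delivers aminoacyl-tRNA, was at 7640 and 8161 TPM against 3228 and 3153 TPM (-1.31, adjusted p = 0.0149). Eif2s3x, the X-linked gamma subunit of eIF2, was the fourth, at 241 and 173 TPM against 81.3 and 78.5 TPM. Polyamine synthesis gave 2 called lower of 14, Amd1 and Amd2, which encode near-identical decarboxylases whose reads may be split between them. Amd1 was at 328 and 263 TPM against 137 and 135 TPM (-1.10, adjusted p = 0.0291).

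Nucleotide synthesis gave 2 lower and 1 higher of 34. Impdh1, the rate-limiting dehydrogenase of guanine nucleotides, was at 51.9 and 98.2 TPM against 17.1 and 8.33 TPM (-2.48, limma adjusted p = 0.0391). Pfas, a purine synthesis enzyme, was at 67.5 and 72.0 TPM against 27.2 and 29.5 TPM (-1.27). Nme1, a nucleoside diphosphate kinase, was higher, at 237 and 264 TPM against 511 and 516 TPM (1.04, adjusted p = 0.0226). Nucleolar rRNA processing factors had 0 of 50 called and a median of -0.14, and RNA polymerase I and III subunits 0 of 35 and -0.21. The precursor rRNA gene Rn45s itself was called lower, at 8374 and 13013 TPM against 335 and 352 TPM (-4.92, SE 0.29, adjusted p = 4.02e-05). It was between 7809 and 13013 TPM in all 4 control libraries, ICM included, and between 168 and 630 TPM in all 8 Max and Mcrs1 MO libraries. Ribosomal RNA is not polyadenylated as a rule, and its carry-over into these libraries was not measured.

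Other machinery with members called lower was scattered. Sf3a2, a subunit of the U2 snRNP, had the largest of the 12 falls ranked below, from 68.8 and 87.9 TPM to 1.78 and 1.14 TPM (-5.02, SE 0.59, limma adjusted p = 0.0149). In the same spliceosome list Lsm5, of the U6-binding ring, was called higher, at 33.5 and 47.1 TPM against 141.4 and 142.96 TPM. That list gave 2 higher and 1 lower of 72, and its median of 0.13 lay above the -0.19 of all genes. Of the RNA polymerase II and Mediator genes 3 were called higher and 2 lower of 56, with a median of 0.14. Med25 was at 110 and 122 TPM against 17.4 and 19.7 TPM (-2.58) and Med26 at 40.4 and 27.3 TPM against 12.6 and 8.77 TPM (-1.57), while Med27 was at 39.5 and 29.4 TPM against 87.0 and 113 TPM (1.51). DNA replication had 2 called lower of 51, beside 1.45% of all genes, and a median of -0.19, the same as all genes. Pold1, the catalytic subunit of polymerase delta, was at 51.3 and 53.5 TPM against 22.3 and 8.99 TPM. Cdc7, an origin-firing kinase, was at 39.2 and 54.8 TPM against 15.8 and 16 TPM. Xpo1, the main nuclear export receptor, was at 209 and 193 TPM against 51.3 and 52.5 TPM (-1.93, adjusted p = 0.0277).

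Single called genes came from further lists. Over all genes 1.45% were called lower and 1.04% higher, so 1 call in a list does not set the list apart. DNA repair gave 1 called lower of 68, cytosolic heat shock chaperones 1 of 26 and oocyte genes 1 of 11, with 0 higher in each. Lig3, a DNA ligase of repair, was at 50.1 and 63.8 TPM against 25.1 and 15.9 TPM (log2 difference -1.45). Bag3, a co-chaperone of HSP70, was at 170 and 153 TPM against 78.5 and 62.7 TPM (-1.19). Atg9a, a lipid scramblase of the growing autophagosome, was at 44.9 and 46.4 TPM against 4.55 and 2.63 TPM (-3.38). Among the 36 autophagy genes it was the 1 called. Vars, the valyl-tRNA synthetase, was at 54.4 and 44.0 TPM against 16.5 and 11.3 TPM, while Aimp2, a scaffold of the synthetase complex, was called higher, at 152 and 174 TPM against 385 and 293 TPM (1.05), and 1 of 22 in that list was called in each direction. Ybx2, an RNA-binding protein of germ cells, was at 23.2 and 19.2 TPM against 4.35 and 3.89 TPM. In these 6 genes the groups did not overlap. That was usual among calls, since 269 of the 280 called genes had separate groups and a mean of at least 5 TPM.

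The clearest group on the higher side was the proteasome, the protease that degrades ubiquitinated proteins. Of 45 subunits and assembly factors tested, 42 had a positive difference, 39 were apart and higher where 21.2% of all genes were, 3 were called higher and 0 lower. The median was 0.68, or 0.53 with the length trend removed and 0.82 with the GC trend removed. Psmb3 was at 374 and 593 TPM in control TE and 1127 and 1156 TPM in Max MO TE (1.28, SE 0.21, limma adjusted p = 0.0226). Psmb4 was at 191 and 260 TPM against 505 and 506 TPM (1.18), and Psma2 at 288 and 328 TPM against 674 and 590 TPM (1.04). All 3 are subunits of the core particle. The remaining 42 lay below the 2-fold limit or above the adjusted p of 0.05.

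Protein folding and secretion genes were also called higher. Prefoldin, which hands unfolded actin and tubulin to the chaperonin, and the chaperonin itself gave 3 called higher and 0 lower of 19, with a median of 0.40. With the length trend removed 0 of the 19 were called and the median was 0.46. Pfdn4 was at 3.89 and 4.74 TPM against 57.9 and 60.7 TPM (3.51, SE 0.71, limma adjusted p = 0.0343), Pfdn1 at 64.6 and 83.4 TPM against 163 and 150 TPM (1.08), and Pdrg1, a prefoldin-like protein, at 98.3 and 127 TPM against 237 and 250 TPM (1.12). ER translocation and glycosylation gave 3 higher and 0 lower of 47, with a median of 0.34. Ssr2, of the translocon-associated complex, was at 178 and 221 TPM against 490 and 522 TPM (1.35), Srp14, of the signal recognition particle, at 122 and 113 TPM against 234 and 251 TPM, and Ostc, of the oligosaccharyltransferase, at 188 and 145 TPM against 319 and 361 TPM. Lysosomal proteases Ctsz and Ctsl were called higher, Ctsz at 45 and 57.1 TPM against 137 and 160 TPM (1.53). Of stress genes, 0 of 33 unfolded protein and integrated stress response genes, 0 of 29 p53 response genes and 0 of 27 apoptosis regulators were called. Beside 2.5% of all genes, 0 calls in lists of this size do not set them apart. Over the 6 TE libraries 2 of the 33 were called higher and 1 lower, beside 1.93% and 4.55% of all genes. Of the p53 response genes and apoptosis regulators 0 were called there.

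Nuclear genes for mitochondrial proteins had medians above 0. Mitochondrial ribosomal proteins gave 4 called higher and 0 lower of 77, with a median of 0.57. Of the 77, 59 were apart and higher, beside 21.2% of all genes. Mrpl51 was at 40.9 and 45.8 TPM against 122 and 123 TPM (1.48, SE 0.24, limma adjusted p = 0.0226). Mitochondrial import gave 2 higher of 37 with a median of 0.47. Timm8b, a chaperone of the intermembrane space, was at 34.5 and 32.8 TPM against 89.5 and 90.9 TPM (1.40), and Mtx1, an outer membrane import protein, at 43.2 and 55.0 TPM against 130 and 124 TPM (1.36). Cytosolic ribosomal proteins had a median of 0.37, which was 0.09 with the length trend removed, and 3 of 81 were called higher. Rps27l, a paralogue of Rps27, was at 267 and 324 TPM against 899 and 843 TPM (1.56). Glutathione genes Mgst2 and Gsto1 were called higher among 39 of that list. Gsto1, an omega-class transferase, was at 735 and 761 TPM against 1737 and 1783 TPM (1.23). Cdc20, the activator of the anaphase-promoting complex, was the 1 called of 62 cell cycle genes, at 644 and 587 TPM against 1528 and 1370 TPM (1.23).

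Ranked by size among called genes with separate groups and a mean of at least 5 TPM, the 12 largest rises and 12 largest falls give the extremes. The rises were 1700080O16Rik, Cited1, Pfdn4, Bhlhb9, Adtrp, Bex4, 4930461G14Rik, Apoa1, Acer2, Galns, Romo1 and Rpph1, between 2.32 and 3.66 on the log2 scale. Apoa1, the main apolipoprotein of HDL, was at 30.1 and 19.2 TPM against 122 and 167 TPM (2.52, limma adjusted p = 0.0411), and Mcrs1 MO TE held it at 41.0 and 38.1 TPM. Adtrp, a hydrolase of fatty acid esters, was at 2.39 and 2.93 TPM against 22.1 and 27.2 TPM (2.81). Acer2, a Golgi ceramidase, was at 2.0 and 3.14 TPM against 18.4 and 19.8 TPM. Romo1, a small inner mitochondrial membrane protein, was at 6.13 and 21.5 TPM against 73.6 and 54.3 TPM. The falls named here, 11 of the 12, were Sf3a2, Rn45s, Snord7, Snora17, Cnot3, Capn15, Ulbp1, Mir7079, 4931406H21Rik, Mir293 and Atg9a. Cnot3, a subunit of the CCR4-NOT deadenylase, was at 66.7 and 71.4 TPM against 4.72 and 4.5 TPM (-3.64, adjusted p = 0.0167). All of the 12 rises and 12 falls were called over the 6 TE libraries too, as were 277 of the 280 calls. Those 6 include the 4 libraries compared here, so this is not a separate test.

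**Figure D5:**
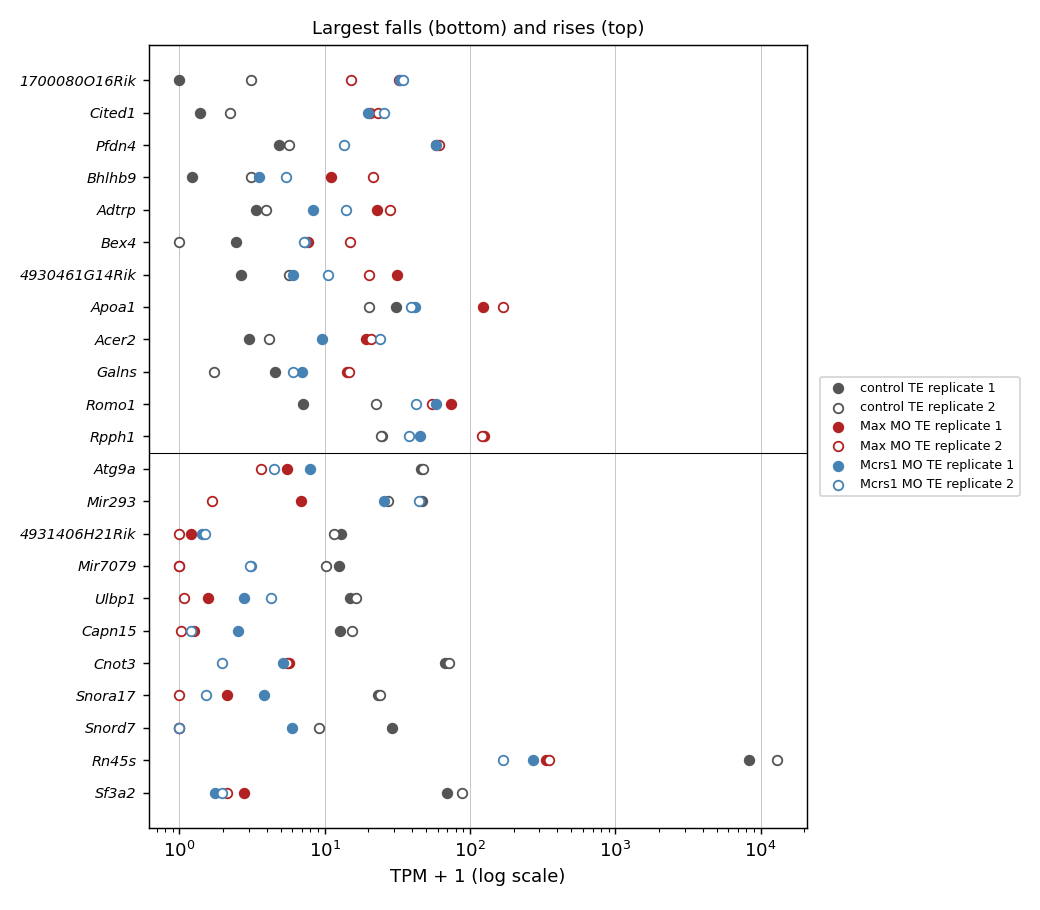
TPM + 1 on a log axis for the 12 genes with the largest rise (top) and 11 of the 12 with the largest fall (bottom), 1 point per TE library. By the rule that chose these genes, the 2 Max MO TE points lie on one side of the 2 control TE points in each. For most falls the Mcrs1 MO TE points lie near those of Max MO TE, with Mir293 as an exception.

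Sex-linked genes were called in both directions, while most of the list lay lower. Of 12 tested, 1 was called higher and 2 lower. The median log2 difference was -0.83, or -0.29 with the length trend removed, beside -0.19 and -0.01 over all genes. Of the 12, 9 were apart and lower and 1 apart and higher, beside 36.3% and 21.2% of all genes. Xist, the RNA that silences one X chromosome in female cells, was called lower, at 46.5 and 21 TPM against 5.03 and 2.59 TPM (log2 difference -2.80, SE 0.60, limma adjusted p = 0.0400). Eif2s3y, the Y-linked copy of eIF2 gamma, was called higher, at 38.5 and 47.4 TPM against 152 and 133 TPM (1.71, SE 0.26, adjusted p = 0.0226), and its X-linked copy Eif2s3x was lower as given above. Other Y-linked genes were not called. Ddx3y was at 59.0 and 43.0 TPM against 54.6 and 58.5 TPM, and Kdm5d at 2.22 and 2.69 TPM against 0.387 and 0 TPM, the latter pair picked after their values were seen. The sex of the pooled embryos was not given.

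Small RNA genes were called in the lower direction, with 15 lower and 0 higher of 192 tested, beside 1.45% and 1.04% of all genes. They are short, and transcript length moved with the result. Of those among the 12 largest falls, Snora17 stayed called with the length trend removed. Snord7, Mir7079 and Mir293 did not (limma adjusted p = 0.0713, 0.0980 and 0.0644). Polyadenylated RNA was captured, so the values concern primary transcripts and host RNA, not mature miRNAs, and 10 of the 15 lie inside a host gene on the same strand. The members below were picked after their values were seen. They belong to 2 clusters in which some miRNAs share a seed sequence. For that reason the RefSeq mature sequences (GRCm38.p6) are shown with the seed, bases 2 to 8, in capitals. The first 3 are of the Mir17 cluster on chromosome 14 and the last 3 of the miR-290 cluster on chromosome 7, and all but Mir295 were called.
miR-17-5p: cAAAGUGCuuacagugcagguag
miR-20a-5p: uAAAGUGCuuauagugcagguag
miR-18a-5p: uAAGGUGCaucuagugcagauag
miR-294-3p: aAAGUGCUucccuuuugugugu
miR-295-3p: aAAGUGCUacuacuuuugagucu
miR-293-3p: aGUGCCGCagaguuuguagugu
The seed AAAGUGC is shared by miR-17-5p and miR-20a-5p, and AAGUGCU, the same letters moved by 1 base, by miR-294-3p and miR-295-3p. The seeds of miR-18a-5p (AAGGUGC) and miR-293-3p (GUGCCGC) are shared with none of the others shown.

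Members of both clusters were called lower in Max MO TE. Mir17, at chr14:115043671-115043754 in the deposited mm10 coordinates, was at 6.58 and 5.04 TPM in control TE and 0.131 and 0 TPM in Max MO TE (log2 difference -2.67, SE 0.54, limma adjusted p = 0.0343). Mir18 and Mir20a were called too, and both were listed at 0 in both Max MO TE libraries. The host transcript Mir17hg, a textbook MYC target, was at 9.62 and 12.3 TPM against 3.32 and 1.32 TPM, with an adjusted p of 0.0671. In Mcrs1 MO TE Mir17 was listed at 0 in both libraries and Mir17hg stood at 3.47 and 5.04 TPM. Mir293, at chr7:3220343-3220422, was at 45.9 and 26.2 TPM against 5.94 and 0.692 TPM (-3.38, SE 0.63, adjusted p = 0.0291), and Mir294 at 20.3 and 11.4 TPM against 1.65 and 0 TPM (-3.32, adjusted p = 0.0277). Mcrs1 MO TE held Mir293 at 24.5 and 43.6 TPM and Mir294 at 9.71 and 30.1 TPM, ranges that overlap those of control TE. Mir295 was not called, at 12.5 and 14.3 TPM against 1.3 and 0 TPM (limma adjusted p = 0.0643). The rest of the cluster was not called either. Mir290a was at 0 and 0.899 TPM against 3.41 and 0 TPM, Mir291a at 5.53 and 0 TPM against 6.27 and 0 TPM, Mir292 at 8.29 and 0 TPM against 4.43 and 0 TPM, and Mir291b at 21.7 and 6.86 TPM against 3.06 and 0 TPM. The direct difference between the knockdowns was not called, with an adjusted p of 0.313 for Mir293 and 0.184 for Mir294. The host transcript D7Ertd143e was at 19.8 and 11.8 TPM against 4.09 and 0.134 TPM, with an adjusted p of 0.0621 against control.

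The E-box CACGTG, which MAX dimers bind, was searched in RefSeq promoter windows of GRCm38.p6, from 250 bases before to 50 after the start. A window was found for 8397 of the genes tested, and 10.7% of them held CACGTG, which reads the same on both strands. The share was 14.9% of 94 genes called higher and 14.8% of 108 called lower. CACGCG or its reverse complement CGCGTG was in 18.3% of all windows, 23.4% of those called higher and 21.3% of those called lower. The E2F site GCGGGAA or its reverse complement TTCCCGC was in 9.11%, 5.32% and 14.8%. The 3 motifs share no full match. Sycp3, a protein of the meiotic chromosome axis and the 1 called of 24 germline genes, had 2 E-boxes and was higher, at 43.8 and 17.0 TPM against 132 and 78.6 TPM (1.86, SE 0.44, limma adjusted p = 0.0484). Over the 6 TE libraries its adjusted p was 0.0526. Eif4g1, described above as lower, also had 2, and Cgn, a TE junction gene, had 1. Their promoters are shown, each with CACGTG in capitals and 5′ to 3′ on the gene's strand, because they hold the motif in genes called in opposite directions.
Sycp3 (chr10:88459337-88459636, plus strand): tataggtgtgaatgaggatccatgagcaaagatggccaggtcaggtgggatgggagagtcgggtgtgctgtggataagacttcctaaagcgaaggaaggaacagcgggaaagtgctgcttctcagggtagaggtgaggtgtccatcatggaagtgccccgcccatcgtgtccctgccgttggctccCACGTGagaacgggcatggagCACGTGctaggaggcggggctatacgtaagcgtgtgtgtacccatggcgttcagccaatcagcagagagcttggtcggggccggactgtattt
Eif4g1 (chr16:20672477-20672776, plus strand): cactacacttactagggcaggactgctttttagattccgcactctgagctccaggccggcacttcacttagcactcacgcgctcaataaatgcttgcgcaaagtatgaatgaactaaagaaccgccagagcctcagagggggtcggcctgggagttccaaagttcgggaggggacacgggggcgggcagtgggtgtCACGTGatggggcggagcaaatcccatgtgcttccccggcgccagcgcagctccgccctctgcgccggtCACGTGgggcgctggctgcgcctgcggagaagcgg
Cgn (chr3:94786433-94786732, minus strand): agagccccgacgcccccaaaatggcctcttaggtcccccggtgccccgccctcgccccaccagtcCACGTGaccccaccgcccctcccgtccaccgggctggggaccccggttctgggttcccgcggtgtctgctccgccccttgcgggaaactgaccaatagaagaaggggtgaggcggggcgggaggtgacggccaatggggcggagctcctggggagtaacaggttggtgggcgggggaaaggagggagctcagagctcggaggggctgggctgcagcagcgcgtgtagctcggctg
A match is a description of the letters and was not tested for binding.

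Germline genes include known targets of PRC1.6. Of 37 listed, 24 reached the filter, 1 was called higher and 0 lower, the median was -0.01, and 12 had a positive and 12 a negative difference. Of these 24, 5 were apart and higher and 3 apart and lower, beside 21.2% and 36.3% of all genes. CACGTG was in 9 of the 23 with a promoter window, beside 10.7% of all windows. Imprinted genes had 0 of 22 called and a median of -0.25, and genes of the two-cell stage 0 of 6.

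Mcrs1 MO TE shares the control TE libraries with Max MO TE, so the knockdowns were compared with each other directly. Against Mcrs1 MO TE, 3 of 11219 genes were called (0.0267%), all higher in Max MO TE, and 617 had an unadjusted p under 0.05. The first was Mcrs1, the target of the other morpholino, at 206 and 194 TPM in Max MO TE and 41.1 and 45.5 TPM in Mcrs1 MO TE (log2 difference 2.18, limma adjusted p = 0.00752). The other 2, named like Mcrs1 because the count is small, were H2-D1, at 395 and 376 TPM against 123 and 138 TPM, and H2-L, at 489 and 474 TPM against 151 and 167 TPM, class I histocompatibility genes that are near-identical copies. Their adjusted p-values were each 0.0309. With the 6 TE libraries alone 0 genes were called, with 1268 at an unadjusted p under 0.05. Against control TE, 570 genes were called in Mcrs1 MO TE (5.08%). The list medians in Mcrs1 MO TE against the same controls were 0.77 for the proteasome, -0.89 for cholesterol synthesis and -0.88 for TE factors, beside 0.68, -0.84 and -0.65 in Max MO TE. Other lists parted, with epiblast factors at 0.44 in Mcrs1 MO TE beside -0.43 in Max MO TE, the unfolded protein and integrated stress response at -0.49 beside -0.02, and amino acid transport at -0.73 beside -0.22. All genes tested had -0.24 and -0.19.

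Whether the response in the TE differed from that in the ICM was tested as an interaction. In the fit of 12 libraries 0 of 11219 genes were called, and 1473 had an unadjusted p under 0.05. Leaving out control ICM replicate 1, the control ICM library with TE keratins, gave 506 calls (4.51%), which rest on a single control ICM library whose spread is assumed to be like that of the other groups. Of the 24 TE genes, 12 were called in that fit, all with a lower response in the TE than in the ICM, among them Krt18, Krt8, Gata3 and Cdx2, with limma adjusted p-values of 0.0030, 0.0067, 0.00801 and 0.0208. These 4 were picked after their values were seen. In each of them both Max MO ICM libraries lay above control ICM replicate 2, the control left in that fit. Krt18 was at 108 TPM there against 1097 and 2572 TPM, Krt8 at 175 against 1510 and 3172 TPM. Gata3 was at 63.7 against 97.7 and 72.7 TPM, and Cdx2 at 0.222 against 3.25 and 3.77 TPM. A lower response in the TE is thus not in itself a fall there, since Krt8 was higher in Max MO TE than in control TE. Sf3a2 was at 123 and 121 TPM in control ICM and 2.0 and 9.72 TPM in Max MO ICM. The proteasome list had a median of 0.72 in the ICM and cholesterol synthesis -0.21, where all genes tested had -0.21. No change was therefore called particular to the TE in the fit of 12 libraries.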

How the data were processed

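Smart-seq2 libraries from TE and ICM after injection of fertilized zygotes with a control, Max or Mcrs1 morpholino were used, with groups and replicate numbers from the sample labels. According to the submitters' processing notes and the study's methods, the authors trimmed reads with cutadapt 1.16, aligned them to mm10 with HISAT2 and quantified them with StringTie. The authors deposited 1 table per library with coverage, FPKM and TPM per gene. The TPM column holds both loci assembled in that library, which alone make up the whole TPM total, and genes of a reference annotation (24421 symbols), so gene values here are TPM relative to that total. The deposited FPKM and coverage signal were used for the depth alone, as their ratio. Assembled loci were not analysed.

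TPM of reference rows was summed per symbol. limma 3.58.1 (R 4.3.3, eBayes with trend) was fitted to log2(TPM + 1) of 12 libraries in 6 groups, on 11219 genes averaging 1 TPM or more. The count-based test named in the study's methods could not be used on these values. On simulated data of 11219 genes for Max MO TE against control TE, limma called 36% of genes changed by 2 and 73% of those changed by 3 on the log2 scale, and 9 of 118 calls were false. Named genes were Max, the 12 largest rises and 12 largest falls among called genes with separate groups and averaging 5 TPM or more, up to 4 called members per direction of each list (otherwise up to 3 members with the highest mean TPM), and members of the MYC network, PRC1.6 and TE lists. The lists and members were chosen with earlier results of these data known. Some genes that the rule names are not reported here. Other named genes are marked as picked after their values were seen. Transcript length and GC are those of the longest GENCODE vM21 transcript, found for 99.3% of genes, and their trends were removed by lowess with a span of 0.3. Alternatives were other pseudocounts, filters, scalings, library sets, a replicate block, leaving out each library, and length and GC corrections. Promoter and miRNA sequences are from RefSeq. Python 3.11.15, numpy, pandas and matplotlib made tables and figures.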

Additional observations from a re-analysis of the deposited data

Results flagged for a closer look

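Bhlhb9, a gene on the X chromosome, was flagged because its libraries moved in opposite directions in the TE and the ICM. It was at 0.22 and 2.13 TPM in control TE and 10.1 and 20.7 TPM in Max MO TE, a log2 difference of 2.98, and at 13.8 and 15.1 TPM in control ICM and 9.21 and 10.4 TPM in Max MO ICM, a log2 difference of -0.51. The interaction term did not pass the test in the fit of 12 libraries (limma adjusted p = 0.174), and its adjusted p was 0.052 without control ICM replicate 1. Groups of 2 libraries are too small for a test of single outlying libraries.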

How the results depend on the processing

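The 280 calls between Max MO TE and control TE became 170 (60 higher) with no filter, 173 (91 higher, 82 lower) with quantile normalization, 727 (217 higher) with the 6 TE libraries, 0 with the 4 control and Max MO TE libraries, 37 (5 higher) with eBayes without trend, 125 (89 higher) with the length trend removed and 796 (260 higher) without control ICM replicate 1. Leaving out 1 of the 4 libraries gave 1 to 3 calls (3 without control TE replicate 1, 1 without each of the others), and Rn45s was called in all 4 of these fits. The GC correction and the fit without control ICM replicate 1 were chosen after seeing the data. With GC removed 306 of 410 calls were higher, 74.6% against 41.8% without a correction. The share was 52.6% with quantile normalization and 71.2% with length removed. The fold change of Max kept its direction and was called in none of the alternatives, at -1.74 to -0.9 when 1 library was left out and -0.98 with quantile normalization, so under 2-fold in some. Calls for a difference between TE and ICM went from 0 to 1 with a pseudocount of 0.1, 45 with no filter and 506 without control ICM replicate 1. Leaving out TE libraries gave 0 in every case. Calls between Max MO TE and Mcrs1 MO TE went from 3 to 13 with no filter and 0 with the 6 TE libraries or without trend, and ranged from 0 to 5 when 1 library was left out. Of 77 called genes named in the text, 76 remained called with the 6 TE libraries and 29 of the 75 with a length remained with the length trend removed, and none reversed. Genes without a call that reversed were Krt18 (0.12), Mlx (0.08) and Mcrs1 (0.03) with GC removed, Klf6 with rescaled TPM (-0.03) and quantile normalization (-0.05), Mir292 (0.25) with length removed, Ddx3y (-0.06 to 0.38), Pdgfra (-0.5 to 3.65), Tdgf1 (-3.46 to 2.83), Klf6 (-0.29 to 0.34), Sparc (-0.11 to 1.13), Mir290a (-0.46 to 1.68), Mir291a (-1.35 to 1.51) and Mir292 (-2.0 to 1.22) over fits that left out 1 of the 4 TE libraries. The causes were not tested. Replicate numbers are shared names and not a stated pairing. Deviations of same-numbered control and Max MO TE libraries had a correlation of 0.0296 across 11219 genes, and a replicate block gave 208 calls (87 higher), 0 between TE and ICM and 4 against Mcrs1 MO TE. Depth limits low genes most, control TE replicate 1 having 1.00 aligned gigabases.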
